A study of Mus musculus with 4 samples.

Results

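Asns, Chac1, Ddit3, Trib3, Sesn2, Psat1, Phgdh, Atf5, Mthfd2 and Nupr1 are 10 genes that stress-activated ATF4 is known to induce, among them enzymes of serine synthesis, and their signals in mouse kidney are described here. They were chosen by name, with earlier results of these data known. Their counts beside those of all genes are therefore a description and not a test. All 10 were among the 18193 genes read from probe sets that the array annotation ties to a single symbol. The 4 groups of male C57Bl/6 mice were mice labelled Tet2KO after renal ischemia of 60 min and reperfusion for 24 h (IR), mice labelled Tet2KO after sham surgery, wild-type (WT) mice after the same IR, and WT mice after sham surgery. Tet2 is a dioxygenase gene whose product begins the removal of methyl groups from DNA; how it was deleted, and in which cells, is not given in the sources used here. Each group was measured on 1 Affymetrix array with RNA from whole kidney pooled from 3 mice, so the spread between mice is unknown and no difference below has a test or a p-value. In whole-kidney RNA, fewer cells of a type and less RNA per cell cannot be told apart.

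ATF4 is a transcription factor of the integrated stress response. Kinases that sense amino acid shortage, misfolded protein in the endoplasmic reticulum, haem shortage or double-stranded RNA phosphorylate the initiation factor eIF2, which slows general translation but favours translation of the Atf4 message. ATF4 protein then turns on genes for amino acid synthesis and uptake, tRNA charging, glutathione breakdown and further transcription factors. Because ATF4 is controlled largely at translation, the level of its own message is an incomplete readout of its activity. The kidney is also known as an organ that makes and releases serine.

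In the Tet2KO-labelled pair all 10 genes had higher signals after IR than after sham, and 6 of them (Psat1, Phgdh, Nupr1, Chac1, Atf5 and Asns) were at 2-fold or more; 0 were lower at that size. Of the 13600 genes measured in that pair, 48.2% had log2 ratios above 0. At 2-fold or more, 6.06% were higher and 6.89% lower. In the WT pair Asns and Psat1 were higher at 2-fold or more and Nupr1 was lower, against 2.06% of 13531 measured genes higher and 2.18% lower. The members' median log2 ratio was 1.27 in the Tet2KO-labelled pair, where the median of all measured genes was -0.02, and 0.32 in the WT pair, where it was 0.02. The Tet2KO_IR array held the highest signal for 8 of the 10 genes, and the Tet2KO_Sham array the lowest for 6. The order of the arrays was not counted over all genes. The Tet2KO-labelled and WT pairs used different arrays.

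**Figure D1:**
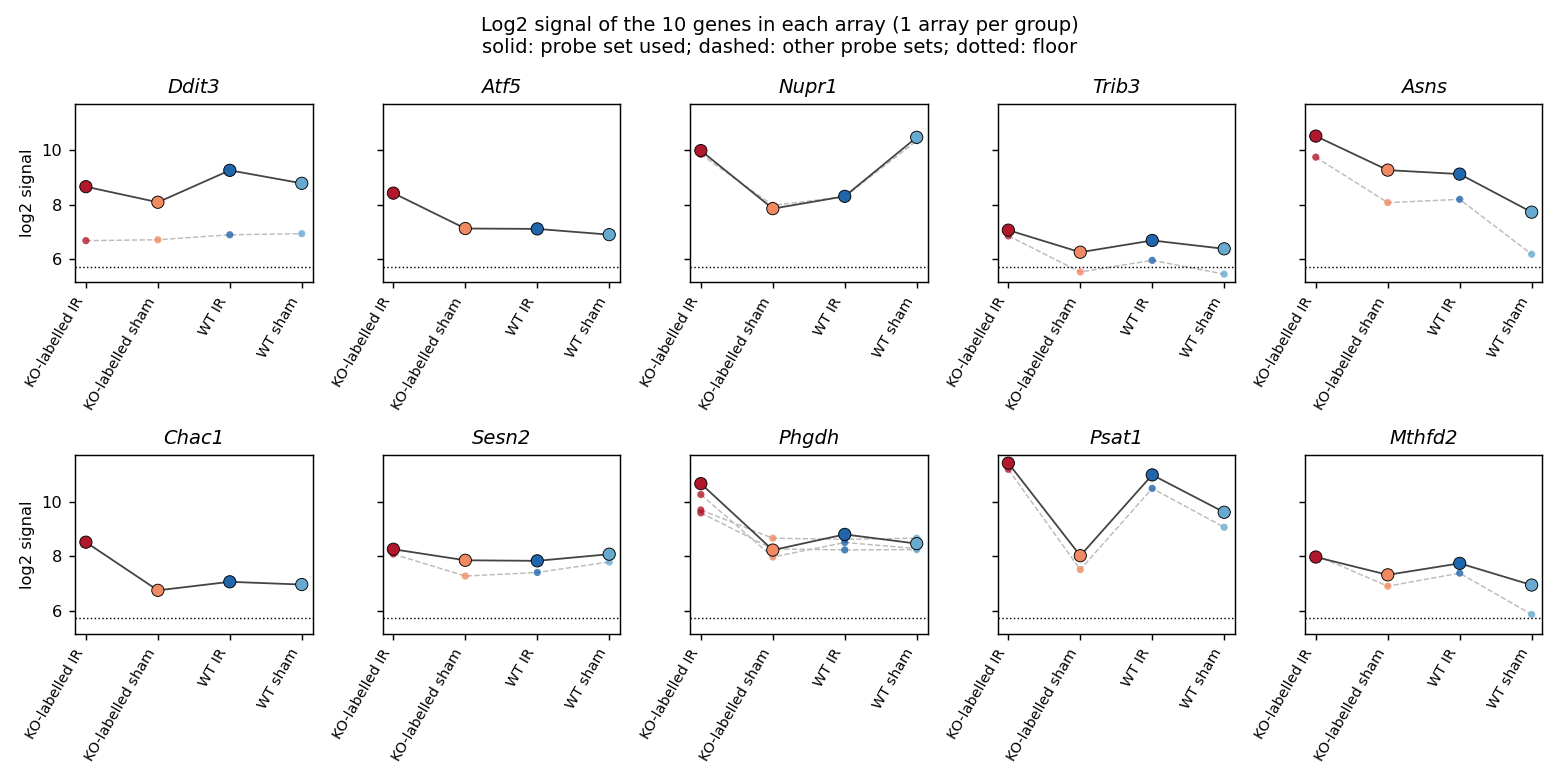
Log2 signal (vertical axis) of each of the 10 genes in the 4 arrays (horizontal axis, 1 array per group, 3 pooled mice each). Large outlined points joined by solid lines are the probe set used, small points joined by dashed lines are other probe sets with that symbol alone, and the dotted line is the floor of 5.72. The Tet2KO_IR array is highest in 8 of 10 panels, while Nupr1 is highest in WT_Sham and Ddit3 in WT_IR.

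The label was checked first at Tet2 itself. Its brighter probe set had log2 signals of 8.60 in Tet2KO_IR and 10.25 in Tet2KO_Sham, against 9.30 in WT_IR and 9.84 in WT_Sham. The dimmer probe set of Tet2 gave 8.74 and 9.87 in the Tet2KO-labelled arrays, against 9.16 and 9.96 in the WT arrays. Neither was absent from the arrays labelled Tet2KO, and where these probe sets lie relative to the deletion is not known here, so the arrays are called by their label throughout. The sham arrays were the closest pair over all probe sets (r = 0.993). The injury marker Havcr1 had log2 signals of 14.13 in Tet2KO_IR, 7.00 in Tet2KO_Sham, 13.68 in WT_IR and 9.52 in WT_Sham. Lrp2, the endocytic receptor that marks proximal tubule, had 11.20, 13.34, 12.52 and 13.25 in those arrays, so the labelled tissue was present in all 4.

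ATF4 acts at a composite C/EBP-ATF response element. The core letters TGATGNAA were searched on both strands in the 250 bases before the annotated starts of the 10 genes (12 starts, RefSeq, GRCm38.p6), and found for Asns, Chac1 and Nupr1. Of all 27025 genes with a start in that table, 3.91% held the letters in the same window. The full cAMP response element TGACGTCA was found for 0 of the 10 genes, and for 1.77% of all genes. The 3 windows are shown because they hold the element of a gene that was at 2-fold or more after IR in the Tet2KO-labelled pair; each is the gene's own strand, 5′ to 3′, with the matched letters in capitals.
Asns, chr6:7693210-7693459, minus strand: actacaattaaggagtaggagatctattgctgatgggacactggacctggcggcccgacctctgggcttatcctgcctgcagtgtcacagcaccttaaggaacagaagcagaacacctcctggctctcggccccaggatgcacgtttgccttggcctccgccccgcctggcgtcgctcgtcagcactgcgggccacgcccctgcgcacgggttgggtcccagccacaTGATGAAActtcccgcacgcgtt
Chac1, chr2:119350992-119351241, plus strand: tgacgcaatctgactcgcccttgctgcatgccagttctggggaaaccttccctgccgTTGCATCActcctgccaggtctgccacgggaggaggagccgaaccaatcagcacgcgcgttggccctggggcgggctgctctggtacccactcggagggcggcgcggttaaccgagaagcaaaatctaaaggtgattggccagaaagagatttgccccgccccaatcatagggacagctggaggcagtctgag
Nupr1, chr7:126625471-126625720, minus strand: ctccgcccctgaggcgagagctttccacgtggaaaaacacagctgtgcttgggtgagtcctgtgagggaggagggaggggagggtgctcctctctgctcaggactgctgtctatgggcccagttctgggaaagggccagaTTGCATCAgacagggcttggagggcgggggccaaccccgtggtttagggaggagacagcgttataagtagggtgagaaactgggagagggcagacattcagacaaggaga
The Asns match starts at position -23 from the annotated start on the gene's own strand. The Chac1 match starts at -193 and the Nupr1 match at -110, both on the opposite strand. Chac1 and Nupr1 hold the same 8 letters. In the whole window of 300 bases, which adds the first 50 bases of the transcript, Trib3 also had a match, at position 15, and 4.51% of all genes did. A match of letters is a description and not a site of binding, and no match says only that these letters are not in this window.

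Of the 10 genes, Psat1 and Phgdh had the highest log2 ratios of IR to sham in the Tet2KO-labelled pair. Phgdh, the first enzyme of serine synthesis from a glycolytic intermediate (chromosome 3), had a log2 signal of 10.67 in Tet2KO_IR, against 8.23 in Tet2KO_Sham, and 8.80 in WT_IR, against 8.47 in WT_Sham. The other 3 arrays lay close together and Tet2KO_IR stood above them. The log2 ratio of IR to sham was 2.44 in the Tet2KO-labelled pair, 5.42-fold, and 0.34 in the WT pair, 1.26-fold. Phgdh has 4 probe sets with its symbol alone, all of the _x_at type, whose probes can bind other transcripts, and 2 more that also list a predicted gene. Over all 6, the log2 ratio lay between 1.04 and 2.50 in the Tet2KO-labelled pair and between -0.22 and 0.34 in the WT pair. The direction in the Tet2KO-labelled pair was thus shared by every Phgdh probe set, while the size was not.

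Psat1, the aminotransferase that acts after Phgdh (chromosome 19), had a log2 signal of 11.42 in Tet2KO_IR, against 8.02 in Tet2KO_Sham, and 10.99 in WT_IR, against 9.61 in WT_Sham. Both IR arrays were above both sham arrays, and the Tet2KO_Sham array was the lowest. The signal was 10.5-fold higher after IR in the Tet2KO-labelled pair, rank 37 of 13600 measured genes, and 2.59-fold higher in the WT pair, rank 124 of 13531. The IR arrays themselves differed little, with a log2 ratio of Tet2KO-labelled to WT of 0.43, whereas between the sham arrays that ratio was -1.59. The larger fold in the Tet2KO-labelled pair therefore came with a lower sham value. The other Psat1 probe set gave log2 ratios of 3.68 and 1.43 for IR in the Tet2KO-labelled and WT pairs, and -1.55 between the sham arrays.

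Psph, the phosphatase that completes serine synthesis, is not a member and was flat, with a log2 ratio of -0.15 for IR in the Tet2KO-labelled pair and 0.15 in the WT pair. Mthfd2, a mitochondrial enzyme that oxidises the folate-bound one-carbon unit taken from serine (chromosome 6), had a log2 signal of 7.97 in Tet2KO_IR, against 7.32 in Tet2KO_Sham, and 7.74 in WT_IR, against 6.95 in WT_Sham. Both IR arrays were above both sham arrays. The log2 ratio of IR to sham was 0.65 in the Tet2KO-labelled pair and 0.80 in the WT pair, 1.57-fold and 1.74-fold. The other probe set of Mthfd2 gave 1.14 and 1.52, so whether Mthfd2 reached 2-fold depended on the probe set. Psat1 and Mthfd2 thus had higher signals after IR in both pairs, and the difference of the pairs' log2 ratios, Tet2KO-labelled minus WT, was 2.02 for Psat1 and -0.14 for Mthfd2.

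Asns makes asparagine from aspartate (chromosome 6), and is induced by ATF4 when amino acids are short. Its log2 signal was 10.52 in Tet2KO_IR, against 9.28 in Tet2KO_Sham, and 9.13 in WT_IR, against 7.73 in WT_Sham. The Tet2KO_Sham array was as high as the WT_IR array, within 0.15 on the log2 scale. The log2 ratio of IR to sham was 1.25 in the Tet2KO-labelled pair and 1.40 in the WT pair. Tet2KO-labelled over WT was 1.39 between the IR arrays and 1.54 between the sham arrays, where Asns ranked 12 of 13474 measured genes. Asns was the 1 member higher at 2-fold or more between the sham arrays, where 0.186% of all measured genes were. The second Asns probe set gave 1.67 and 2.01 for IR in the Tet2KO-labelled and WT pairs, and 1.89 between the sham arrays. The Asns difference by label was thus of similar size with and without injury.

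Chac1 encodes a cyclotransferase that breaks down glutathione (chromosome 2). Its log2 signal was 8.52 in Tet2KO_IR, against 6.75 in Tet2KO_Sham, and 7.06 in WT_IR, against 6.96 in WT_Sham. Tet2KO_IR stood alone above the other 3 arrays, which lay within 0.31 of each other. The fold after IR was 3.40 in the Tet2KO-labelled pair and 1.07 in the WT pair, on the only Chac1 probe set. Sesn2, a leucine-sensing inhibitor of mTORC1 (chromosome 4), had a log2 signal of 8.26 in Tet2KO_IR, against 7.85 in Tet2KO_Sham, and 7.83 in WT_IR, against 8.08 in WT_Sham. Its whole range over the arrays was 0.43, the narrowest of the 10 genes. The log2 ratio of IR to sham was 0.41 in the Tet2KO-labelled pair and -0.24 in the WT pair, and the second probe set gave 0.81 and -0.39.

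Ddit3, the transcription factor CHOP, which is linked to death of cells under lasting stress of the endoplasmic reticulum (chromosome 10), had a log2 signal of 8.67 in Tet2KO_IR, against 8.10 in Tet2KO_Sham, and 9.27 in WT_IR, against 8.79 in WT_Sham. Both WT arrays were above both Tet2KO-labelled arrays. The fold after IR was 1.49 in the Tet2KO-labelled pair and 1.39 in the WT pair, and the log2 ratio of Tet2KO-labelled to WT was -0.60 between the IR arrays and -0.69 between the sham arrays. Ddit3 was the 1 member lower in Tet2KO_IR than in WT_IR. Its dimmer probe set showed almost no IR response, with log2 ratios of -0.03 and -0.04. Trib3, a pseudokinase that binds AKT and ATF4 (chromosome 2), had a log2 signal of 7.07 in Tet2KO_IR, against 6.26 in Tet2KO_Sham, and 6.70 in WT_IR, against 6.39 in WT_Sham. The fold after IR was 1.75 in the Tet2KO-labelled pair and 1.24 in the WT pair; these signals are near the floor, and the other Trib3 probe set was below it in both sham arrays. That probe set gave plain log2 differences of 1.33 in the Tet2KO-labelled pair and 0.51 in the WT pair. With the median over probe sets the log2 ratio in the Tet2KO-labelled pair was 1.07 and the genes at 2-fold there numbered 7, so whether Trib3 reached 2-fold depended on the probe set.

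Atf5, a bZIP transcription factor related to ATF4 and tied to stress of mitochondria (chromosome 7), had a log2 signal of 8.43 in Tet2KO_IR, against 7.13 in Tet2KO_Sham, and 7.12 in WT_IR, against 6.91 in WT_Sham. As for Chac1, Tet2KO_IR stood above the other 3 arrays. The fold after IR was 2.46 in the Tet2KO-labelled pair and 1.16 in the WT pair.

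Nupr1, a small stress-induced chromatin protein (chromosome 7), had a pattern of its own among the 10. Its log2 signal was 9.99 in Tet2KO_IR, against 7.86 in Tet2KO_Sham, and 8.31 in WT_IR, against 10.48 in WT_Sham. WT_Sham and Tet2KO_IR were high and the other pair of arrays low. Nupr1 was 4.37-fold higher after IR in the Tet2KO-labelled pair and 4.48-fold lower in the WT pair, and the second probe set gave log2 ratios of 1.87 and -2.06. Between the sham arrays it was 6.13-fold lower in the Tet2KO-labelled array. Adipoq, the hormone made by fat cells, was likewise high in Tet2KO_IR and WT_Sham, with log2 signals of 9.31 in Tet2KO_IR, 4.19 in Tet2KO_Sham, 4.46 in WT_IR and 10.11 in WT_Sham. At 2-fold or more, 5 of 6 measured adipose markers were higher after IR and 1 was lower in the Tet2KO-labelled pair (median log2 ratio 1.87). In the WT pair 0 of 7 were higher and 4 were lower (median -1.79). The shares of all measured genes were 6.06% higher and 6.89% lower in the Tet2KO-labelled pair, and 2.06% and 2.18% in the WT pair. Of the 8 adipose markers read, 2 were below the floor in Tet2KO_IR, 5 in Tet2KO_Sham, 5 in WT_IR and 1 in WT_Sham. Their summed linear signals were 16058, 20871, 11773 and 26464 in those arrays. The 7 urothelial markers summed to 1073, 672, 866 and 1565, and the uroplakin Upk3b among them had log2 signals of 6.60, 5.33, 6.09 and 7.56. The part of fat or urothelial RNA in the Nupr1 values was not tested.

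**Figure D2:**
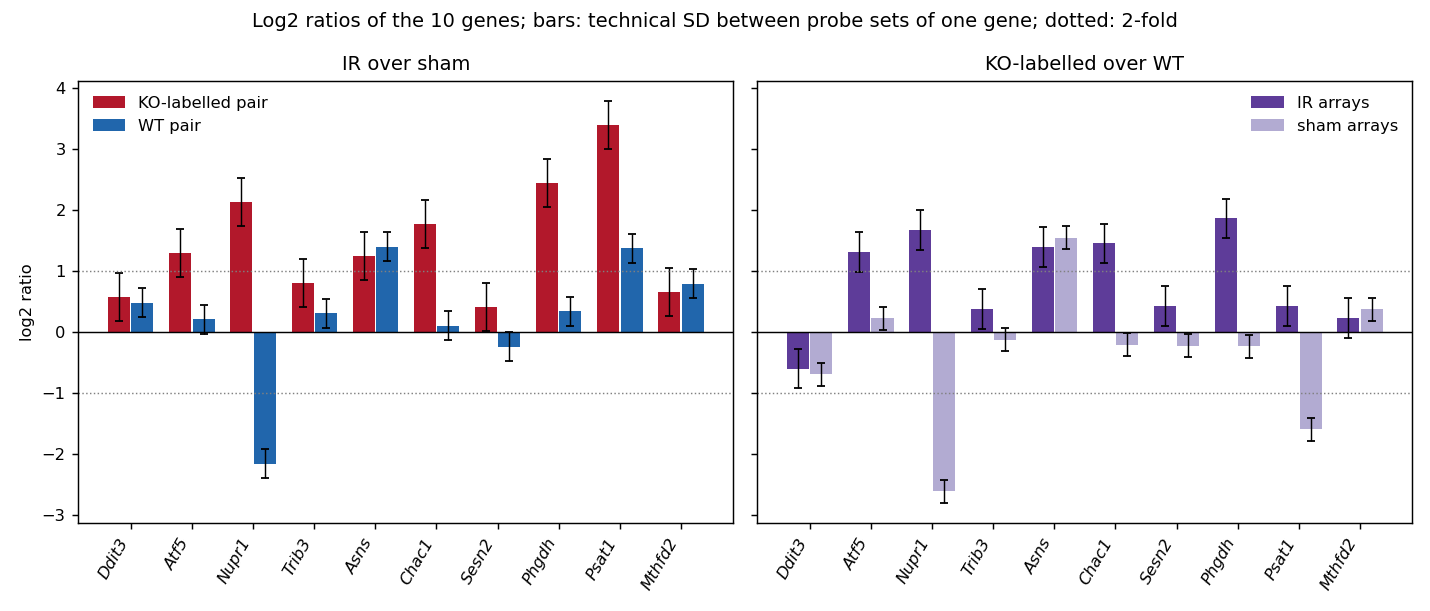
Log2 ratios (vertical axis) of the 10 genes (horizontal axis), with IR over sham on the left for the Tet2KO-labelled and WT pairs and Tet2KO-labelled over WT on the right for the IR and sham arrays. Error bars are the technical SD of that comparison, taken over genes with several probe sets, between 0.19 and 0.39. They are the same for every gene and cover neither mice nor arrays. Dotted lines mark 2-fold. Nupr1 has opposite signs in the pairs, and Asns is above 1 in all 4 comparisons.

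The technical SD was taken from genes with several probe sets, as the SD of their log2 ratios within a gene. Probe sets of a gene were read on the same arrays, so this SD covers the spread between neither mice nor arrays. It was 0.39 for the Tet2KO-labelled pair and 0.24 for the WT pair. Between the IR arrays it was 0.32, between the sham arrays 0.19, and for the difference of the responses 0.37. All 10 genes were higher after IR by more than that SD in the Tet2KO-labelled pair, where 22.1% of all measured genes were higher and 21.4% lower by as much. In the WT pair 6 were higher and 2, Nupr1 and Sesn2, lower by more than the SD, where 22.1% of all measured genes were higher and 19.5% lower, and Chac1 and Atf5 were within it. Sesn2 passed it in both pairs by a narrow margin, at 1.03 and 1.02 times the SD.

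Set against each other, the IR arrays had 5 of the 10 genes at 2-fold or more higher in Tet2KO_IR than in WT_IR (Phgdh, Nupr1, Chac1, Asns and Atf5) and 0 lower, against backgrounds of 3.68% and 3.99% of 13492 measured genes. Their median log2 ratio was 0.87, against -0.01 for all measured genes. The sham arrays had Asns higher and Nupr1 and Psat1 lower in the Tet2KO-labelled array, where 0.846% of measured genes were lower at 2-fold or more. The members' median between the sham arrays was -0.22, and that of all measured genes was 0.04. These comparisons share arrays with the IR responses above and are given side by side, not as separate support. For the difference of the responses, Tet2KO-labelled minus WT, 5 genes were at 2-fold or more above 0 and 0 below, where 4.75% and 4.77% of 13808 measured genes were. The 5 were Nupr1 at 4.29 on the log2 scale, Phgdh at 2.10, Psat1 at 2.02, Chac1 at 1.67 and Atf5 at 1.09, while Asns had -0.15, Mthfd2 -0.14 and Ddit3 0.10. Atf5 was under 2-fold when a pseudocount replaced the floor, at 0.89, and after quantile normalization, at 0.98, which left 4 genes in each case. Asns, Mthfd2 and Ddit3 thus had log2 ratios after IR that differed between the pairs by less than the technical SD of 0.37.

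**Figure D3:**
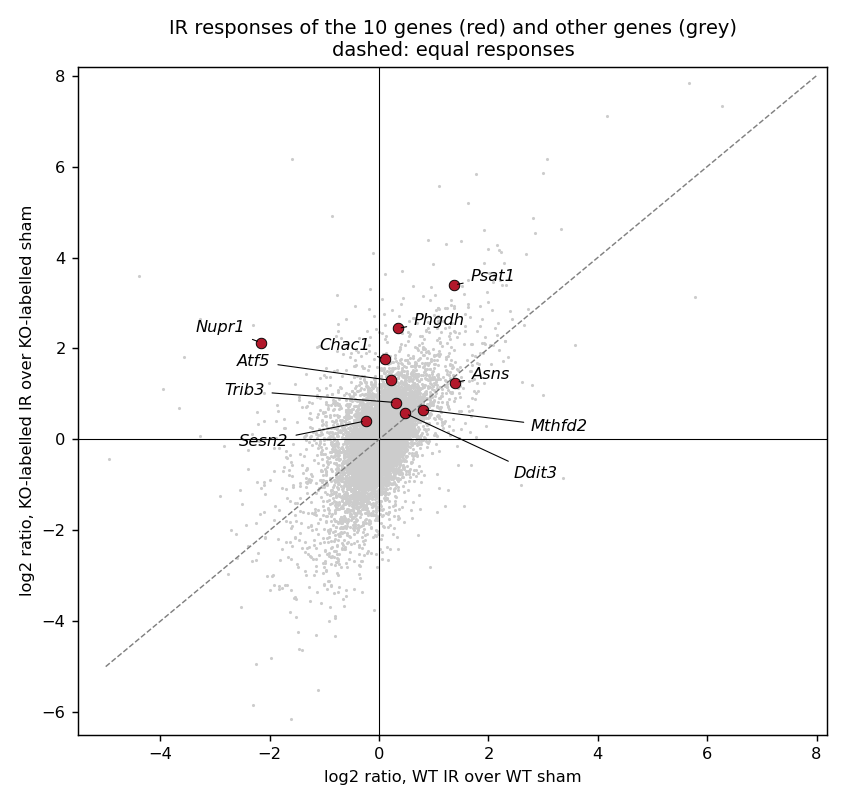
Log2 ratio of IR to sham in the Tet2KO-labelled pair (vertical axis) against that in the WT pair (horizontal axis) for genes measured in both pairs (grey) and the 10 genes (red, named). Asns, Mthfd2 and Ddit3 lie near the dashed line of equal responses, Psat1, Phgdh, Chac1 and Atf5 lie above it, and Nupr1 lies at the upper left, below 0 in WT and above 0 in the Tet2KO-labelled pair.

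Which sham array served as control moved the value by more than the technical SD for 5 genes. Against WT_Sham, Tet2KO_IR was 6.92-fold higher for Asns, 3.49-fold higher for Psat1, 2.04-fold higher for Mthfd2 and lower for Nupr1, with a log2 ratio of -0.49, and Ddit3 had -0.12. The genes at 2-fold or more higher in Tet2KO_IR thus numbered 6 with either sham array, with Mthfd2 among them in place of Nupr1 against WT_Sham. Against Tet2KO_Sham, WT_IR had log2 ratios of 2.96 for Psat1, 1.17 for Ddit3, 0.45 for Nupr1, 0.42 for Mthfd2 and -0.15 for Asns. Phgdh, Chac1 and Atf5 were higher in Tet2KO_IR at 2-fold or more whichever sham array was used, 4.60-fold, 2.94-fold and 2.87-fold against WT_Sham.

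Upstream of the members, Atf4 itself had a log2 signal of 11.55 in Tet2KO_IR, against 10.79 in Tet2KO_Sham, and 10.90 in WT_IR, against 10.88 in WT_Sham. Its message was 1.70-fold higher after IR in the Tet2KO-labelled pair and flat in the WT pair, at 1.02-fold. Another probe set gave log2 ratios of 1.19 and -0.08, and the dimmest, near the floor, -0.18 and 0.07. Of 21 kinases and regulators of the integrated stress response, 4 were at least 2-fold higher and 1 at least 2-fold lower in the Tet2KO-labelled pair. In the WT pair there were 0 in either direction. Their median log2 ratios were 0.15 and 0.07. Of all measured genes, 6.06% were as much higher and 6.89% as much lower in the Tet2KO-labelled pair. In the WT pair the shares were 2.06% and 2.18%. The 1 lower gene and the WT counts are near those shares. Atf3, a stress-induced repressor, was 4.06-fold higher and Cebpb, a partner of ATF4 at the composite element, 2.58-fold higher in the Tet2KO-labelled pair. Dnajc3, a chaperone that inhibits the eIF2 kinase PERK, was 3.09-fold lower there. In the WT pair Atf3 was 1.74-fold higher, Cebpb 1.09-fold higher and Dnajc3 1.19-fold lower. Atf3 had close log2 signals in the IR arrays, 8.09 in Tet2KO_IR and 7.89 in WT_IR. Its sham signals were 6.07 in Tet2KO_Sham and 7.09 in WT_Sham.

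Other ATF4 target genes were not all higher. Among 24 measured in the Tet2KO-labelled pair, at 2-fold or more 3 were higher and 3 were lower, and the median log2 ratio was 0.36. Among 23 in the WT pair the counts were 3 and 2, and the median was 0.18. The shares of all measured genes were 6.06% higher and 6.89% lower in the Tet2KO-labelled pair, and 2.06% and 2.18% in the WT pair. Eif4ebp1, a repressor of cap-dependent translation, was 7.63-fold higher after IR in the Tet2KO-labelled pair and 2.60-fold in the WT pair. The amino acid transporter Slc38a2 was 3.35-fold and 1.39-fold higher, and the alanine aminotransferase Gpt2 3.10-fold and 3.26-fold. Cth and Cbs, which make cysteine from homocysteine, were 6.39-fold and 5.70-fold lower in the Tet2KO-labelled pair, and Cbs was 2.46-fold lower in the WT pair. Ddit4, an inhibitor of mTORC1, had a log2 ratio of 0.40 in the Tet2KO-labelled pair and -1.05 in the WT pair.

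Cytosolic aminoacyl-tRNA synthetases, which load amino acids onto tRNA, were slightly higher as a list. In the Tet2KO-labelled pair 18 of 19 had log2 ratios above 0, and 18 of 19 in the WT pair, with medians of 0.55 and 0.36. Of all measured genes, 48.2% and 52.5% were above 0 in those pairs, with medians of -0.02 and 0.02. In the IR over sham comparisons, the serine enzyme Sars alone reached 2-fold, at 2.15-fold in the Tet2KO-labelled pair. Among other enzymes of serine, glycine and folate metabolism, 1 of 14 was higher and 5 were lower at 2-fold or more in the Tet2KO-labelled pair (median -0.84). In the WT pair 1 was higher and 0 were lower (median -0.07). The shares of all measured genes were 6.06% higher and 6.89% lower in the Tet2KO-labelled pair, and 2.06% and 2.18% in the WT pair. The mitochondrial Mthfd1l, which acts next to Mthfd2 in the folate pathway, was 3.60-fold higher in the Tet2KO-labelled pair and 1.22-fold in the WT pair. The glycine methyltransferase Gnmt and the cytosolic serine hydroxymethyltransferase Shmt1 were 3.34-fold and 2.95-fold lower in the Tet2KO-labelled pair. In the WT pair Gnmt was 1.54-fold lower and Shmt1 1.22-fold higher. The glycine cleavage enzyme Gldc was 2.62-fold higher in the WT pair and 1.89-fold higher in the Tet2KO-labelled pair.

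The chaperone branch of the unfolded protein response, under XBP1 and ATF6, was chosen here as a related pathway to set beside the ATF4 targets. Of its 20 genes, at 2-fold or more 0 were higher and 2 were lower in the Tet2KO-labelled pair (median -0.52). In the WT pair there were 0 in either direction, with a median of 0.02. The shares of all measured genes were 6.06% higher and 6.89% lower in the Tet2KO-labelled pair, and 2.06% and 2.18% in the WT pair. The 2 lower genes and the WT counts are near those shares. The 2 were Sdf2l1, 3.21-fold lower, and the disulfide isomerase Pdia4, 2.12-fold lower. Of 10 genes around glutathione, 0 were higher and 5 were lower in the Tet2KO-labelled pair (median -0.98), and 0 were higher and 2 were lower in the WT pair (median -0.08). In the Tet2KO-labelled pair the brush border peptidase gene Anpep was 3.72-fold lower and Chac2, the constitutive relative of Chac1, 3.61-fold lower. Ggct, which acts on the products of glutathione breakdown, was 3.60-fold lower there and 2.69-fold lower in the WT pair. Dpep1 was 2.06-fold lower in the Tet2KO-labelled pair and 2.01-fold lower in the WT pair. Chac2 was 1.14-fold lower and Anpep 1.14-fold higher in the WT pair. Chac1 thus had a higher signal in Tet2KO_IR while Chac2 had a lower one.

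**Figure D4:**
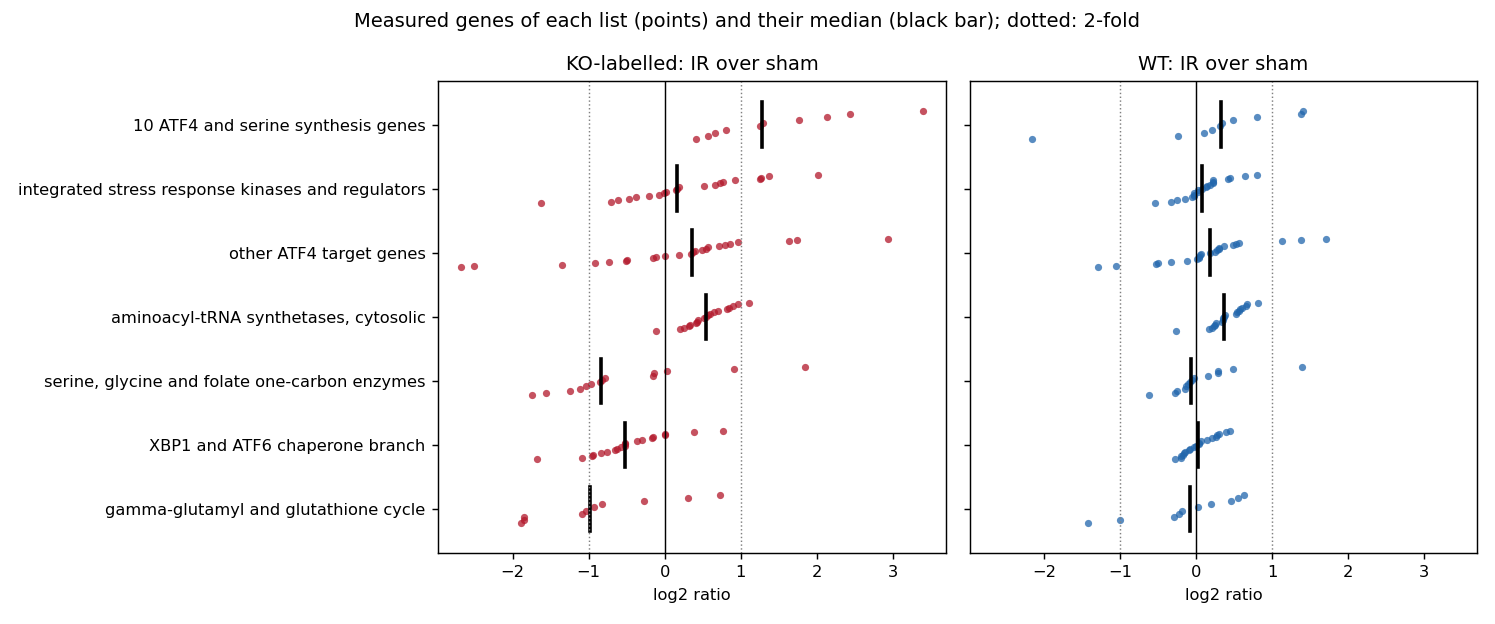
Log2 ratio of IR to sham (horizontal axis) for the 10 genes and for 6 lists of pathway genes (rows), in the Tet2KO-labelled pair (left) and the WT pair (right). Each point is a gene, the black bar is the list's median and dotted lines mark 2-fold. The 10 genes have a median of 1.27 on the left, while the chaperone list lies mostly below 0 there, with a median of -0.52.

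Cell type markers differed beside these values. Of 15 tubular injury markers, 15 were higher at 2-fold or more after IR in the Tet2KO-labelled pair and 11 in the WT pair, and their summed linear signals were 89832 in Tet2KO_IR, 5940 in Tet2KO_Sham, 48798 in WT_IR and 9752 in WT_Sham. Of 24 proximal tubule markers, 14 and 7 were lower in those pairs, with sums of 134367, 262239, 198944 and 260318. The shares of all measured genes at 2-fold or more were 6.06% higher and 6.89% lower in the Tet2KO-labelled pair. In the WT pair they were 2.06% and 2.18%. Of 11 macrophage, monocyte and neutrophil markers, 1 was below the floor in Tet2KO_IR, 4 in Tet2KO_Sham, 2 in WT_IR and 4 in WT_Sham, with sums of 5201, 3746, 2489 and 3803. At 2-fold or more after IR, 4 of 10 measured were higher and 2 lower in the Tet2KO-labelled pair (median log2 ratio 0.36). In the WT pair 3 of 9 were higher and 2 lower (median 0.04), so these markers were mixed. The macrophage gene Cd68 among them was under the floor in both sham arrays. Its log2 signals were 7.88 in Tet2KO_IR, 5.56 in Tet2KO_Sham, 8.03 in WT_IR and 5.34 in WT_Sham. Podocyte markers summed to 3241, 2143, 503 and 1964 in those arrays, endothelial markers to 2868, 3429, 1174 and 3578, and markers of stroma and smooth muscle to 6864, 4384, 3025 and 5101. Markers of the loop of Henle, distal tubule and collecting duct summed to 28758, 75153, 57608 and 82509, and those of lymphocytes to 477, 617, 539 and 542. The part of these cell types in the members' values was not tested.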

How the data were processed

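Per the labels, biotin-labelled cRNA from kidney RNA pooled from 3 mice was hybridised to 1 Affymetrix array per group. The authors deposited log2 signals of 45037 probe sets in 4 columns; that they are log2 was read from the values, between 2.51 and 14.97. The submitters' processing notes name MAS5 without version, and the scaling used is not given in the sources used here. Medians lay between 6.28 and 6.33. The number of arrays limits precision, and depth has no counterpart here.

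Probe sets were tied to genes by the platform annotation: 34945 had 1 symbol, 932 several and 9160 were not listed. A gene was read from its probe set of highest mean signal, an _x_at set only where it had no other. Signals under a floor, the 40th percentile of all signals (log2 5.72), were set to it, and a gene counted as measured with 1 array of the comparison at or over it; all 10 members were over it in every array. Ratios were log2 differences, called at 2-fold. With 1 array per group no test was made. Every member and every probe set of it was named; from each pathway list, up to 2 of the highest and 2 of the lowest genes at 2-fold were, along with Tet2, Atf4, Psph and the markers Adipoq, Upk3b, Havcr1, Lrp2 and Cd68. Of 240 list genes 224 were on the array. Members and lists were chosen with earlier results of these data known. The calls were tested on simulated data, with large changes placed only in genes well above the floor. That check says nothing of calls near the floor or of the spread between mice. Promoters came from RefSeq, GRCm38.p6. In all, 8 alternatives were tried. Python 3.11.15, numpy and pandas were used.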

Additional observations from a re-analysis of the deposited data

Results flagged for a closer look

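Among the 10 genes, the pathway genes named by the rule and the fixed marker genes, those whose signal was higher after ischemia-reperfusion in 1 pair and lower in the other, each by more than the technical SD, were Nupr1, Sesn2, Ddit4, Pdia4, Shmt1, Adipoq and Upk3b. The difference between the pairs was not tested, since each group has 1 array. That SD was 0.39 in the Tet2KO-labelled pair and 0.24 in the WT pair. Sesn2 passed it narrowly in both pairs, Ddit4 in the Tet2KO-labelled pair, and Pdia4 and Shmt1 in the WT pair. Nupr1 had log2 ratios of 2.13 in the Tet2KO-labelled pair and -2.17 in the WT pair. Sesn2 had 0.41 in the Tet2KO-labelled pair and -0.24 in the WT pair. Ddit4 had 0.40 in the Tet2KO-labelled pair and -1.05 in the WT pair. Pdia4 had -1.09 in the Tet2KO-labelled pair and 0.27 in the WT pair. Shmt1 had -1.56 in the Tet2KO-labelled pair and 0.29 in the WT pair. Adipoq had 3.59 in the Tet2KO-labelled pair and -4.39 in the WT pair, where Tet2KO_Sham and WT_IR were set to the floor, so both are lower bounds in size. Upk3b had 0.88 in the Tet2KO-labelled pair, with Tet2KO_Sham at the floor, and -1.47 in the WT pair. Other genes of the lists were not searched.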

How the results depend on the processing

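Of 345 member ratios recomputed under the alternatives, 182 were identical to the reported ones, among them all under the 1.5-fold threshold, no floor and plain _at probe sets, which leave each member ratio they give as it was and say nothing of its stability. Of the 163 that differed, 143 moved by less than the technical SD, 17 by more and 3 called ratios changed sign. All 3 changed with the sham array of the other genotype as control: Nupr1 to -0.49 for Tet2KO_IR and to 0.45 for WT_IR, and Asns to -0.15 for WT_IR; the count of members lower in WT_IR was then 0. Plain _at probe sets kept only 5 members, since Nupr1, Psat1, Phgdh, Atf5 and Trib3 have none, and fewer genes could then be counted: 2 higher in the Tet2KO-labelled pair with a median of 0.65, 1 higher and 0 lower in the WT pair, 2 higher between the IR arrays with a median of 0.43, 0 lower between the sham arrays, and 1 higher for the difference of responses with a median of 0.095. At 1.5-fold, 1 member (Ddit3) was lower in Tet2KO_IR than in WT_IR. The other floor, no floor, the pseudocount, the median over probe sets and quantile normalization kept every count of members within 1.5 times; Atf5 was lost from the difference of responses (0.89 with the pseudocount, 0.98 with quantile normalization), and the median over probe sets added Trib3 in the Tet2KO-labelled pair (1.07) and Mthfd2 in the WT pair (1.16). No paired analysis was possible because each group has 1 array.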
